A study of Mus musculus with 6 samples.

Results

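The genes described here encode regulators of G protein signalling (RGS proteins). They were chosen by name as Rgs2, Rgs3, Rgs5, Rgs10, Rgs12, Rgs14, Rgs16, Rgs17 and Rgs19, and 8 of these 9 were among the 15016 genes of the deposited table, while Rgs14 was not analysed here. RNA was sequenced from organoids grown from mouse cochlear progenitor cells of wild-type genotype, 3 libraries from stiff gels and 3 from soft gels. Before that, both groups had been expanded for 8 to 10 days in a medium with EGF, bFGF, IGF, the GSK3 inhibitor CHIR99021, valproic acid, a stabilised ascorbate (2-phospho-L-ascorbic acid) and the compound 616452. Both then received a differentiation medium with 3 µM CHIR99021 and 5 µM LY411575, a gamma-secretase inhibitor, and were placed in hydrogels of one or the other stiffness at that stage. The sources used here give neither gel stiffness nor days in the gel, neither the animals' age nor whether the 3 libraries of a group were separate cultures. The p-values therefore rest on library-to-library spread alone, and that spread may be technical.

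RGS proteins end the signal of heterotrimeric G proteins: they bind the active G alpha subunit through the RGS domain and speed up its hydrolysis of GTP. Members of the R4 subfamily (here Rgs2, Rgs3, Rgs5 and Rgs16) are mostly small proteins that act on G alpha i or G alpha q, and Rgs2 is known for its preference for G alpha q. The R12 subfamily (Rgs10 and Rgs12) and the RZ subfamily (Rgs17 and Rgs19) act on G alpha i and related subunits. In most tissues Rgs5 is known as a marker of pericytes, and transcripts of Rgs2 and Rgs16 are known to be induced quickly by signals.

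Organoids from stiff gels had less Rgs5 and Rgs16 RNA, at about the same proportion, and slightly more Rgs2 and Rgs3 RNA than organoids from soft gels. The 4 other measured members differed little or were too low to judge. The members had been put together with results of the stiff against soft comparison in view, so their values in that comparison are given as a description, with no test. Outside the members, Rgs4 and Rgs8, the chromosomal neighbours of Rgs5 and Rgs16, fell in stiff gels. Depth was 16108470 to 17899391 reads per library, counted over the listed genes. Levels are in FPKM (fragments counted, scaled to gene length and to the depth of the library), a scale on which genes can be compared with each other. Fold changes are differences in mean log2(FPKM + 1), stiff minus soft, from a limma fit over all genes, with their standard error (SE); this scale understates changes of genes near or under 1 FPKM.

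Soft replicate 1 lay apart from the other soft libraries. On the first principal component, which held 62.5% of the variance, soft replicates 2 and 3 were at -16.1 and -18.9, soft replicate 1 at -1.94 and the stiff libraries at 7.89 to 17.3. For both Rgs5 and Rgs16 it was the soft library nearest to the stiff ones.

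**Figure D1:**
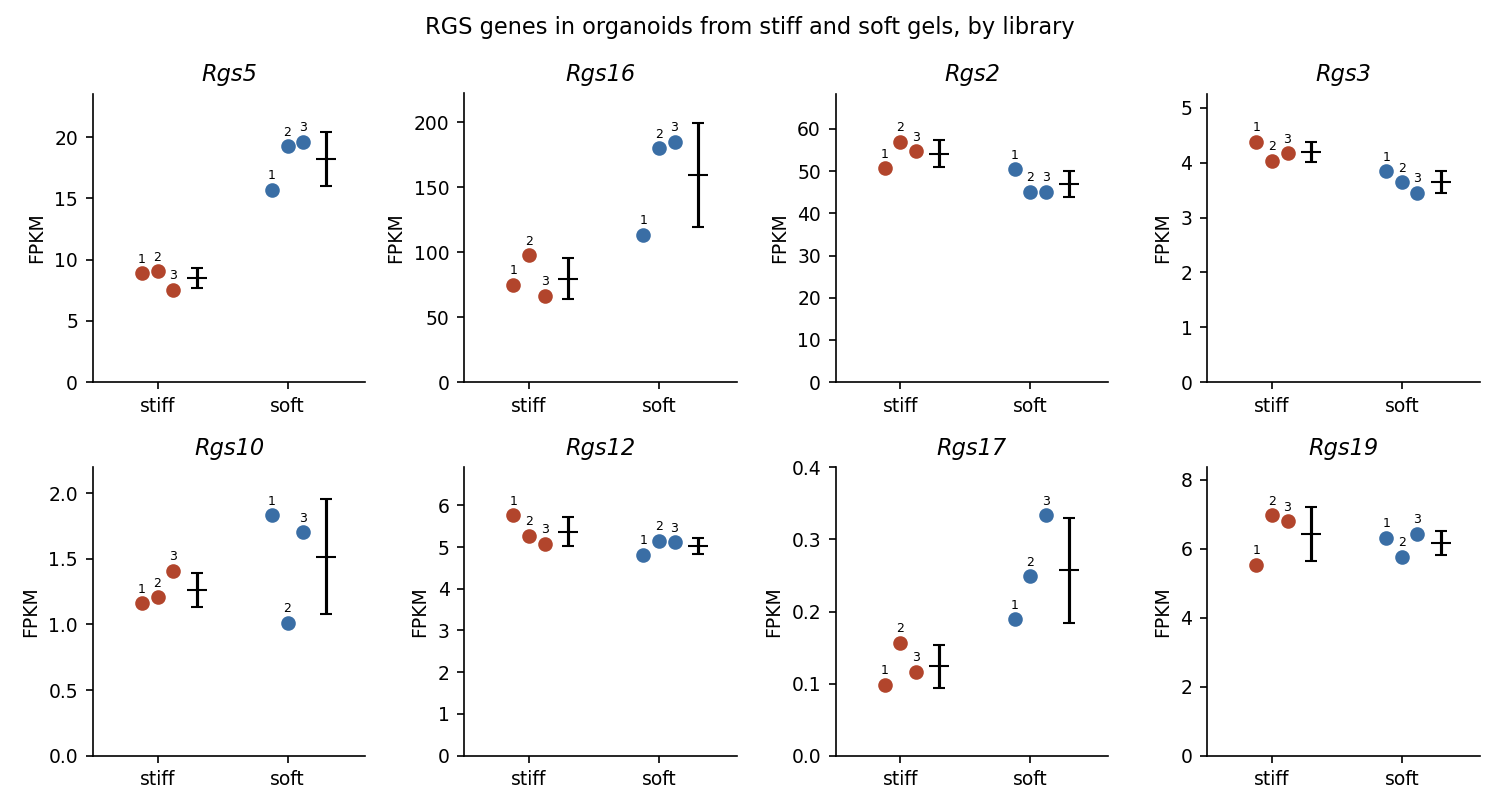
FPKM (vertical axes, from 0) of the 8 measured RGS genes in organoids from stiff gels (red, left) and soft gels (blue, right). Each point is a library with its replicate number, and the black bar is the mean ± SD of 3 libraries. Rgs5 and Rgs16 were lower in every stiff library than in any soft library, and Rgs2 and Rgs3 were higher in every stiff library than in any soft library.

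Among the R4 genes, Rgs5 (chromosome 1, 169655501 to 169695813, RefSeq on GRCm38, the build called mm10) had 8.91, 9.06 and 7.54 FPKM in stiff replicates 1 to 3, against 15.7, 19.3 and 19.6 FPKM in soft replicates 1 to 3. The groups did not overlap, and the spread within stiff gels was narrow. The mean was 8.50 ± 0.84 FPKM in stiff gels and 18.2 ± 2.18 FPKM in soft gels (SD, n = 3 each), so the stiff level was 46.7% of the soft level. The log2 fold change was -1.01 ± 0.10 (SE), and the authors' deposited table gives -1.13. These values rested on 552 to 722 reads per stiff library and 1236 to 1597 reads per soft library.

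Rgs16, the most abundant member (chromosome 1, 153740353 to 153745468), had 75.1, 97.7 and 66.6 FPKM in stiff replicates 1 to 3, against 113, 180 and 185 FPKM in soft replicates 1 to 3. The highest stiff library still lay under the lowest soft library, soft replicate 1, but the gap was small beside the spread of the soft libraries. The means were 79.8 ± 16.1 FPKM in stiff gels and 160 ± 40.1 FPKM in soft gels (SD, n = 3 each). The log2 fold change was -0.98 ± 0.19 (SE), nearly that of Rgs5 with a wider error. Without soft replicate 1 it was -1.20. The level of Rgs16 over that of Rgs5 in the same library was 8.42, 10.8 and 8.84 in stiff gels and 7.23, 9.36 and 9.44 in soft gels, so the ratio overlapped between the gels.

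Rgs2, the second most abundant member (chromosome 1, 143999338 to 144004149), had 50.7, 57.0 and 54.8 FPKM in stiff replicates 1 to 3, against 50.4, 45.2 and 45.2 FPKM in soft replicates 1 to 3. Stiff replicate 1 and soft replicate 1 were almost level, and the groups did not overlap only by that narrow margin. The log2 fold change was 0.20 ± 0.07 (SE). Within a library, Rgs16 RNA was 1.48, 1.71 and 1.22 times Rgs2 RNA in stiff gels and 2.25, 3.99 and 4.10 times in soft gels.

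Rgs3, a larger R4 protein with several known isoforms (chromosome 4, 62559835 to 62703019), had 4.39, 4.04 and 4.17 FPKM in stiff replicates 1 to 3, against 3.85, 3.65 and 3.45 FPKM in soft replicates 1 to 3. The groups did not overlap and the difference was small, with a log2 fold change of 0.16 ± 0.07 (SE). The table has 1 value per gene, so isoforms of Rgs3 or Rgs12 were not told apart.

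The R12 and RZ genes were lower in level than Rgs16 and Rgs2, and none of them differed much between the gels except Rgs17, the rarest. Rgs12, a large scaffold with further binding domains (chromosome 5, 34948929 to 35039642), was at 5.76, 5.27 and 5.08 FPKM in stiff replicates 1 to 3, against 4.82, 5.15 and 5.11 FPKM in soft replicates 1 to 3. The ranges overlapped, and the log2 fold change was 0.08 ± 0.07 (SE). Rgs19, also called GAIP, which interacts with G alpha i (chromosome 2, 181688419 to 181694537), was at 5.54, 6.98 and 6.80 FPKM in stiff replicates 1 to 3, against 6.32, 5.78 and 6.44 FPKM in soft replicates 1 to 3. These ranges overlapped as well, with a log2 fold change of 0.05 ± 0.09 (SE).

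Rgs10, known for its high level in immune cells and microglia (chromosome 7, 128373621 to 128419506), was at 1.16, 1.21 and 1.41 FPKM in stiff replicates 1 to 3, against 1.83, 1.01 and 1.70 FPKM in soft replicates 1 to 3. It rested on 28 to 49 reads per library, and the stiff values lay inside the range of the soft ones (log2 fold change -0.14 ± 0.13 SE). Rgs17, an RZ protein known from brain (chromosome 10, 5825663 to 5922412), was at 0.0986, 0.157 and 0.116 FPKM in stiff replicates 1 to 3, against 0.189, 0.249 and 0.334 FPKM in soft replicates 1 to 3. The groups did not overlap, but the values came from 15, 23 and 16 reads in stiff gels and 28, 38 and 51 reads in soft gels. Rgs17 was under the filter on low values and did not enter the fit; its stiff mean was 48.2% of its soft mean, and the authors' deposited table gives a log2 fold change of -1.09 ± 0.41 (SE).

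By mean FPKM the order in stiff gels was Rgs16 (79.8), Rgs2 (54.2), Rgs5 (8.50), Rgs19 (6.44), Rgs12 (5.37), Rgs3 (4.20), Rgs10 (1.26) and Rgs17 (0.124). In soft gels the order was the same, at 160, 46.9, 18.2, 6.18, 5.02, 3.65, 1.52 and 0.257 FPKM. In stiff gels Rgs19 and Rgs12 overlapped in their ranges; the other neighbours in that order did not. In soft gels no neighbours overlapped. The summed level of the 8 members was 152, 181 and 146 FPKM in stiff replicates 1 to 3 and 197, 261 and 267 FPKM in soft replicates 1 to 3. Without Rgs16 the sum was 80.1 ± 3.57 FPKM in stiff gels and 81.7 ± 1.44 FPKM in soft gels (SD, n = 3 each), with overlapping ranges. Rgs16 made up 49.9% of the summed level in stiff gels and 66.1% in soft gels, while Rgs2 made up 33.9% in stiff gels and 19.4% in soft gels.

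Of the 8 measured members 7 passed the filter of a mean of 1 FPKM in either group. Of these 7, 2 were lower and 0 higher at a limma adjusted p under 0.05 (Benjamini-Hochberg over 11780 genes), where 2.68% of all tested genes were lower and 3.13% higher at that threshold. Since the members were chosen with this contrast in view, nothing is read from that count. Stiff libraries lay wholly under soft ones in 2 of the 7, and wholly above in 2, where this holds for 10.4% and 15.5% of the tested genes (25.9% in either direction). By the q-value in the authors' deposited table, under 0.05, 2 of the 8 members were lower and 0 higher, where 4.68% of its genes were lower and 8.12% differed in either direction. In the deposited annotation, 7 of the 8 carried the term GTPase activator activity, which 1.47% of the genes in the table carry, and 4 carried G-protein alpha-subunit binding.

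Calls outside the members come from the same libraries, so they give no separate test of the members. The other genes with an RGS domain were listed by their known domain, with results of these data already known. The table held 16 of them, and 13 were tested; 2 fell in stiff gels, which were Rgs4 and Rgs8, and 0 rose (limma adjusted p under 0.05; 5.81% of all tested genes were called in either direction). The median log2 fold change over the 13 was -0.02, against 0.03 over all tested genes. Rgs4, an R4 protein known from brain and heart (chromosome 1, 169741477 to 169747642), had 1.09, 0.871 and 0.654 FPKM in stiff replicates 1 to 3, against 2.28, 4.24 and 5.22 FPKM in soft replicates 1 to 3. The groups were far apart, with soft replicate 1 the lowest soft library. The log2 fold change was -1.35 ± 0.21 (SE; limma adjusted p = 0.012). It was -1.99 with a pseudocount of 0.1 and -2.12 with limma-voom on rebuilt reads, and the authors' deposited table gives -2.19.

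Rgs8, an R4 protein known from Purkinje cells of the cerebellum (chromosome 1, 153652959 to 153697669), had 1.63, 1.86 and 1.02 FPKM in stiff replicates 1 to 3, against 3.13, 3.60 and 4.65 FPKM in soft replicates 1 to 3. It fell by 0.94 ± 0.15 on the log2 scale (SE; limma adjusted p = 0.0137). Both calls were lost in some fits without a single library, in which few genes of the whole table were called. Without soft replicate 2 those fits called 50 genes higher and 15 lower, and without stiff replicate 1 they called 66 and 47. The log2 fold change in these fits was -1.28 and -1.43 for Rgs4 and -0.96 and -0.98 for Rgs8. Without soft replicate 2 or without stiff replicate 1 neither gene was called (limma adjusted p of 0.0619 and 0.0531 for Rgs4, 0.0614 and 0.0619 for Rgs8), and Rgs4 was also lost without stiff replicate 3 (0.0515). Without soft replicate 1 the count was 3 lower, the third being Arhgef12, an RGS-domain exchange factor for RhoA. Arhgef12 was lower in stiff gels without overlap but was not called in the main fit (limma adjusted p = 0.0852). It had q = 0.0091 in the authors' deposited table, where the count was also 3 lower. With limma-voom on rebuilt reads the count was 3 lower as well.

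The R7 genes, which pair with the G beta 5 subunit in neurons, did not follow. Rgs9 was at 6.13 ± 0.43 FPKM in stiff gels and 6.65 ± 0.70 FPKM in soft gels (SD, n = 3 each; limma adjusted p = 0.589). Rgs11 was at 6.88 ± 1.82 and 7.07 ± 2.54 FPKM in stiff and soft gels (limma adjusted p = 0.978), and Rgs6 was under the filter, at 0.516 ± 0.11 FPKM in stiff gels and 0.326 ± 0.0865 FPKM in soft gels. Axin2, a Wnt target whose RGS domain binds APC, was at 60.2 FPKM in stiff gels and 69.1 FPKM in soft gels and was not called (limma adjusted p = 0.159).

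**Figure D2:**
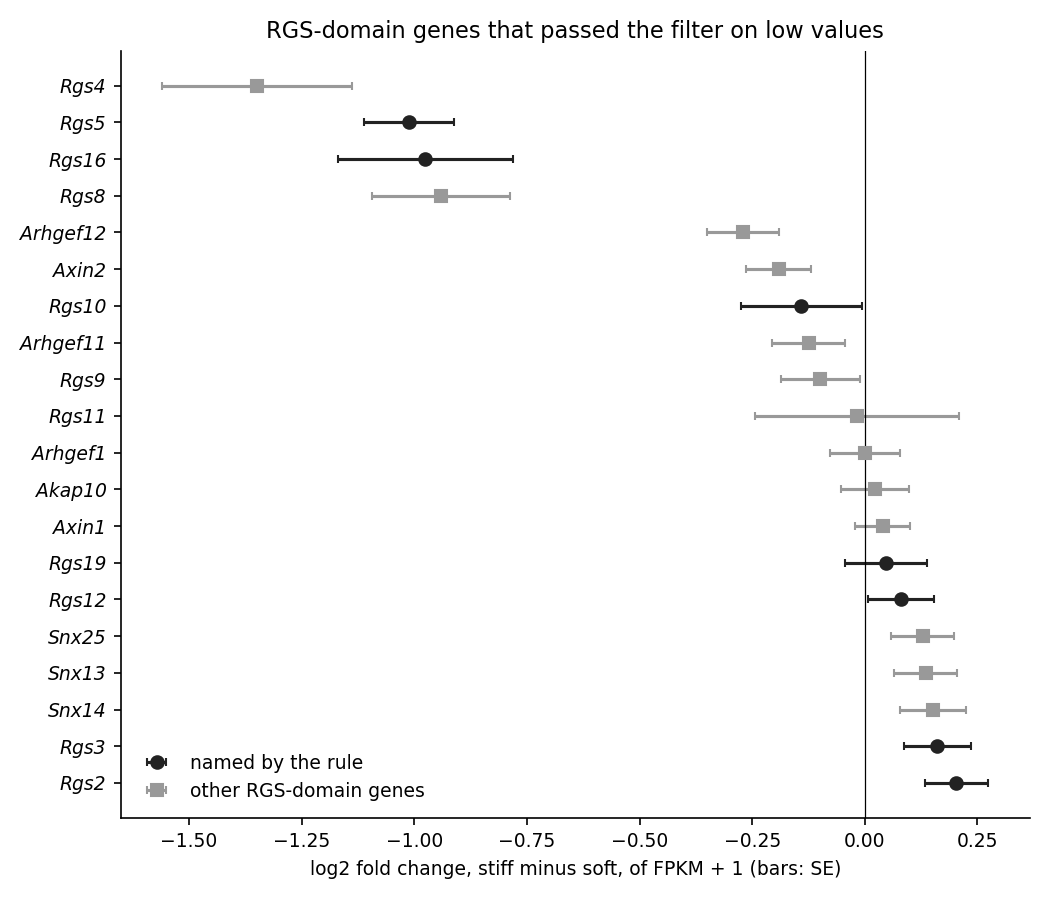
Log2 fold change of FPKM + 1, stiff minus soft (horizontal axis; bars are SE over 3 libraries per group), for the 7 RGS genes named by the rule (black circles) and 13 other RGS-domain genes (grey squares) that passed the filter on low values. Rgs4, Rgs5, Rgs16 and Rgs8 stand between -1.35 and -0.94, and the other 16 genes lie between -0.27 and 0.20.

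These 4 genes sit in 2 adjacent pairs on chromosome 1. Between Rgs5 and Rgs4 lie 45663 bases with 0 annotated genes wholly inside, and between Rgs8 and Rgs16 lie 42683 bases with 1, C230024C17Rik. Rgs2, farther off on the same chromosome, had the opposite sign. Of the genes within 500 kb of these pairs 4 are described, chosen after their values were seen and so with no test. Each of these 4 had a smaller difference than Rgs4, Rgs5, Rgs8 and Rgs16. The other genes in these windows are not described, so how far the difference reached along the chromosome is not shown. Nuf2, a kinetochore gene on the lower side of Rgs5, had a log2 fold change of 0.02 ± 0.13 (SE), with 15.7 FPKM in stiff and 15.7 FPKM in soft gels. Ddr2, a collagen receptor beyond Rgs4, had -0.48 with overlapping groups. Npl and Glul, farther out on either side of Rgs8 and Rgs16, had -0.38 and -0.37, and their groups did not overlap.

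Because Rgs5, Rgs4 and Rgs16 were lower together and Rgs2 was not, the promoters of these 4 genes are shown, each from 250 bases before to 50 bases after the start (RefSeq, GRCm38.p6, written 5′ to 3′ along the gene). Capitals mark matches on either strand to the box named CCAAT for its letters, to the GC box with the letters GGGCGG, and to the TATA box with the letters TATAAA.
Rgs5, chr1:169655251-169655550, plus strand: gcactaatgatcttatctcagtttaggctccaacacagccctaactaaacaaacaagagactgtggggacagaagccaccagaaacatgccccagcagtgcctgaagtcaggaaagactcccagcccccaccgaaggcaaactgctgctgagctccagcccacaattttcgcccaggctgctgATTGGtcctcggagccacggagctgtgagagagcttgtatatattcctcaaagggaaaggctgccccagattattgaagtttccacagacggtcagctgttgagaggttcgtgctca
Rgs4, chr1:169747593-169747892, minus strand: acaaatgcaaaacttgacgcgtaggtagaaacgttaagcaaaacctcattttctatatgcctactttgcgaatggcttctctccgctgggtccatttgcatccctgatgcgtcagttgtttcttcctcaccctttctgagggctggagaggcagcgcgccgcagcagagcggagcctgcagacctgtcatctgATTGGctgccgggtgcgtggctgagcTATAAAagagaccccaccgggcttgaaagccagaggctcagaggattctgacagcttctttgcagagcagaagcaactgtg
Rgs16, chr1:153740103-153740402, plus strand: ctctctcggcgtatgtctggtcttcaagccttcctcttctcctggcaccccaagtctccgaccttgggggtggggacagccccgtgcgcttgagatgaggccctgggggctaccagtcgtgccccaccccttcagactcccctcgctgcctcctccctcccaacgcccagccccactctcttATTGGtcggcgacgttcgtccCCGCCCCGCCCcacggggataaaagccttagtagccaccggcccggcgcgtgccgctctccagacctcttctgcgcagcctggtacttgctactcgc
Rgs2, chr1:144004100-144004399, minus strand: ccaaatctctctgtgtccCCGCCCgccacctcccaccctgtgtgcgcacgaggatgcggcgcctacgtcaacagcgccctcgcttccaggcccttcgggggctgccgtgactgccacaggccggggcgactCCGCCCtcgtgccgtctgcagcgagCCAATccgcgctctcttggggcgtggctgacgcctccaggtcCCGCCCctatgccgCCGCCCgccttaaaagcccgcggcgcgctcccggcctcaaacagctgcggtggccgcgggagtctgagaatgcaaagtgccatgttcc
All 4 windows held 1 CCAAT box, as do 37.4% of 32851 promoters of this length in the same table. Its first base lay 67, 57 and 68 bases before the start in Rgs5, Rgs4 and Rgs16, where it reads attgg along the gene, and 94 bases before the start in Rgs2, where it reads ccaat. GC boxes were found 4 times in Rgs2 and 2 times in Rgs16, where the 2 overlap in sequence, and 0 times in Rgs5 and Rgs4 (35.7% of promoters hold one). The TATA box letters TATAAA were found in Rgs4 alone of the 4 (13.6% of promoters). The E-box CANNTG, not capitalised above, had 5 matches in Rgs4, 1 in Rgs5, 0 in Rgs16 and 1 in Rgs2, and 72.3% of promoters hold one. The AP-1 site TGANTCA and the cyclic AMP response element TGACGTCA had 0 matches in the 4 windows (7.81% and 1.79% of promoters hold them). The hypoxia response core, searched as ACGTG, and the TEAD core GGAATG also had 0 matches (19.6% and 14.7% of promoters). Only the letters given were searched for, so other forms of these boxes and sites were not counted. G and C made up 52.3% of the Rgs5 window and 53.0% of the Rgs4 window, against 66.0% for Rgs16 and 70.0% for Rgs2. Rgs8, which also fell, has 3 annotated starts and the table does not say which was used, so none is shown. The window of its first start held 1 TEAD core and the windows of the others held 0. These matches are letters in a window and were not tested against the expression values.

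The 5 genes whose pattern over the 6 libraries was nearest to that of Rgs5 were Cebpd, Slco2a1, Hspb8, Prss22 and Col5a3. Predicted genes, those named Gm with digits or ending in Rik, were left out of this ranking. Likeness was the root mean square difference of log2(FPKM + 1) after centring each gene, over 6 libraries and 11550 ranked genes, and it was 0.0743 for Cebpd and 0.0954 for Col5a3. Cebpd, a leucine zipper transcription factor of the acute phase response, had 4.72, 4.76 and 3.46 FPKM in stiff replicates 1 to 3, against 7.53, 9.69 and 9.47 FPKM in soft replicates 1 to 3. Slco2a1, a prostaglandin transporter, had 5.56, 5.07 and 4.41 FPKM in stiff replicates 1 to 3, against 8.54, 11.2 and 10.4 FPKM in soft replicates 1 to 3. All 5 had soft replicate 1 as the lowest soft library. Among the RGS genes Rgs8 ranked 9, Rgs16 ranked 45 and Rgs4 ranked 166 in this likeness. Since the measure follows the difference between the gels, it is a description of these libraries only.

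**Figure D3:**
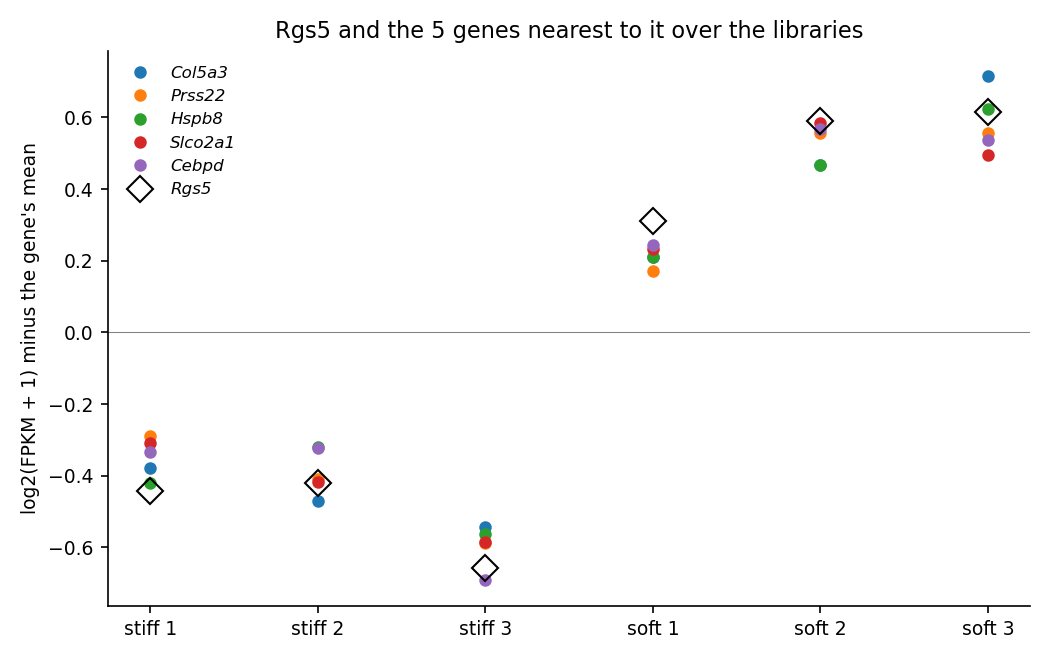
Log2(FPKM + 1) minus each gene's mean (vertical axis) in the 3 stiff and 3 soft libraries (horizontal axis), for Rgs5 (open diamonds) and the 5 genes nearest to it (coloured points). All 6 genes lie under 0 in every stiff library and above 0 in every soft library, with soft replicate 1 the lowest soft library.

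The wider G protein pathway was described from lists of genes by known role, chosen with results of these data known. Over 6 lists, RGS genes outside the members included, 100 genes were tested, of which 7 rose and 5 fell in stiff gels (limma adjusted p under 0.05), against 3.13% and 2.68% of all tested genes. Without soft replicate 2 or without stiff replicate 1 the counts were 0 and 0. Those fits called few genes of any kind. Without soft replicate 2, of 11776 tested genes 50 were higher and 15 lower. Without stiff replicate 1, of 11798 tested genes 66 were higher and 47 lower. The other counts of pathway genes without single libraries ranged from 1 to 8 higher and 1 to 9 lower, the highest being without soft replicate 1.

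Of 22 tested G protein subunits 2 rose and 2 fell, with a median log2 fold change of 0.01. Gnai3, an inhibitory G alpha subunit and a substrate of most RGS proteins, had 147, 138 and 162 FPKM in stiff replicates 1 to 3, against 117, 104 and 101 FPKM in soft replicates 1 to 3. It rose, by 0.47 ± 0.08 on the log2 scale (SE), with a limma adjusted p of 0.0159. Gnai1, its paralogue, fell to 1.28 ± 0.27 FPKM in stiff gels, against 2.09 ± 0.0564 FPKM in soft gels (SD, n = 3 each; limma adjusted p = 0.0395). Gnaz, the G alpha subunit on which the RZ proteins act, was at 1.40 ± 0.26 FPKM in stiff gels and 0.706 ± 0.15 FPKM in soft gels and rose (limma adjusted p = 0.0432). Gngt2, a gamma subunit known from cone photoreceptors, fell to 0.512 ± 0.27 FPKM, against 1.78 ± 0.57 FPKM in soft gels (limma adjusted p = 0.0265). All 4 calls were lost when soft replicate 2, soft replicate 3, stiff replicate 1 or stiff replicate 3 was left out, and that of Gnaz also without stiff replicate 2; the limma adjusted p reached 0.149. With a replicate block Gnaz (limma adjusted p = 0.0648) and Gnai1 (0.052) were not called.

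Of 24 tested receptors 4 rose and 1 fell, with a median of 0.04. Ackr3, an atypical receptor that clears the chemokine CXCL12 and signals through arrestin rather than G proteins, had 5.77, 4.84 and 5.38 FPKM in stiff replicates 1 to 3, against 3.14, 1.56 and 1.25 FPKM in soft replicates 1 to 3. The groups were well apart, by 1.14 ± 0.20 on the log2 scale (SE), and the limma adjusted p was 0.0159. Adra2c, a G alpha i-coupled adrenoceptor, was at 4.54 ± 1.11 FPKM in stiff gels and 2.34 ± 0.40 FPKM in soft gels (limma adjusted p = 0.0257). Lpar3, a lysophosphatidic acid receptor, was at 16.8 ± 1.15 and 11.6 ± 1.64 FPKM in stiff and soft gels (limma adjusted p = 0.0229), and rose. The adenosine receptor gene Adora2a, named after its values were seen, was at 2.38 ± 0.10 FPKM in stiff gels and 1.58 ± 0.22 FPKM in soft gels (limma adjusted p = 0.0443). It was not called without the filter on low values (0.0528), with limma-voom (0.0635), with a replicate block (limma adjusted p = 0.0733) or in the authors' deposited table (q = 0.085). The prostaglandin E2 receptor gene Ptger4 fell to 1.33 ± 0.15 FPKM in stiff gels, against 2.21 ± 0.40 FPKM in soft gels (limma adjusted p = 0.0477). All 5 receptors lost the call when soft replicate 2, stiff replicate 1 or stiff replicate 3 was left out, all but Ackr3 also without soft replicate 3, and Adora2a and Ptger4 also without stiff replicate 2; the limma adjusted p reached 0.161. Ptger4 was not called without the filter on low values (0.0618) or with a replicate block (limma adjusted p = 0.0519).

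Effectors, kinases and modulators held few calls. Of 24 tested effectors 1 rose, the adenylyl cyclase gene Adcy5, at 1.33 ± 0.25 FPKM in stiff gels and 0.634 ± 0.0588 FPKM in soft gels (SD, n = 3 each; limma adjusted p = 0.0292), and 0 fell. This call too was lost when soft replicate 2, soft replicate 3, stiff replicate 1 or stiff replicate 3 was left out (limma adjusted p from 0.0821 to 0.106). The median of the effectors was -0.03, and 6 had an unadjusted limma p under 0.05. Of all tested genes, 21.7% had one. Of 6 tested receptor kinases and arrestins and 11 tested modulators, 0 were called by limma, with 1 of each at an unadjusted p under 0.05. With limma-voom on rebuilt reads 0 of these were called either. Their median log2 fold changes were 0.09 and 0.09.

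**Figure D4:**
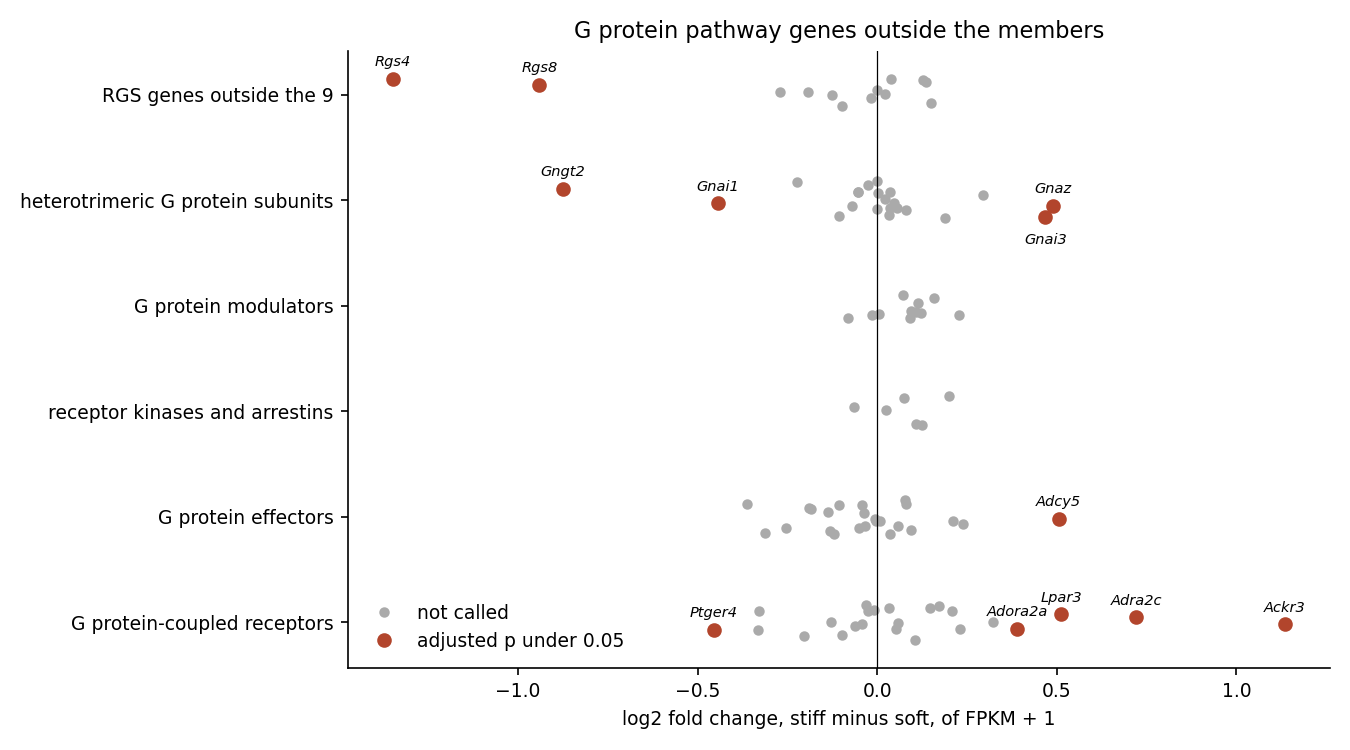
Log2 fold change of FPKM + 1, stiff minus soft (horizontal axis), of the 100 tested G protein pathway genes outside the members, by list (vertical axis, points spread for legibility). Red points are genes with a limma adjusted p under 0.05, 7 higher and 5 lower, led by Rgs4 at -1.35 and Ackr3 at 1.14.

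Markers of the cell types in which RGS genes are known to be abundant were read beside these results. In bulk RNA, fewer cells of a type and less RNA per cell cannot be told apart. Of 14 pericyte markers 12 were in the table, and Higd1b and Foxs1 were not analysed here. The summed level of the 12 was 108 to 130 FPKM in stiff libraries and 114 to 141 FPKM in soft libraries, with overlap. Of 7 tested, 0 were called by limma and 0 by limma-voom. An unadjusted limma p under 0.05 was found for 1 of them, and for 21.7% of all tested genes. The median log2 fold change was -0.23, with 6 negative and 1 positive. Pdgfrb was at 10.3 ± 1.87 FPKM in stiff gels and 13.2 ± 3.62 FPKM in soft gels (SD, n = 3 each; limma adjusted p = 0.416), with overlap. Cspg4 and Kcnj8 were at 0.482 FPKM or less in every library, and the highest 2 markers were Tbx18 and Mcam. Abcc9, at 0.185 to 0.419 FPKM in stiff and 0.480 to 1.03 FPKM in soft libraries, and Ndufa4l2, at 0.216 to 4.30 FPKM in stiff and 5.56 to 13.0 FPKM in soft libraries, were lower in stiff gels without overlap. Both were named after their values were seen; Ndufa4l2 was not called (limma adjusted p = 0.0777), except with a replicate block (0.0113) or without soft replicate 1 (0.039) or stiff replicate 2 (0.0391). The part of pericyte RNA in the level of Rgs5 was not tested.

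Of 8 smooth muscle markers 4 were tested, and 0 were called by limma and 0 by limma-voom. An unadjusted limma p under 0.05 was found for 2, against 21.7% of all tested genes. The log2 fold change was negative for 3 and positive for 1. Myh11 and Acta2 were at 0.591 FPKM or less in every library and Tagln at 1.36 to 2.92 FPKM. Lmod1 and Myl9 were the highest 2. Of 12 endothelial markers 5 were tested and 1 fell, Kdr, the VEGF receptor 2 gene, at 10.7 ± 2.04 FPKM in stiff gels and 24.7 ± 5.17 FPKM in soft gels (SD, n = 3 each; limma adjusted p = 0.0104). It was not called without soft replicate 2 (0.0558) or without stiff replicate 1 (0.0567). Of the 5 tested endothelial markers 4 had a negative and 1 a positive log2 fold change. Pecam1 was at 0.134 FPKM or less in every library, Cdh5 at 0.692 to 1.43 FPKM, and Emcn, the highest endothelial marker, at 326 to 423 FPKM. Of 12 immune markers 3 were in the table and 1 was tested, Cd68, at 4.58 to 6.82 FPKM, with 0 calls by limma (0 at an unadjusted p under 0.05, and 0 by limma-voom). Ptprc, Csf1r and Adgre1 were not analysed here, and Fcer1g was at or under 1.04 FPKM.

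The labelled tissue was read from its own markers. Epcam was at 210 to 279 FPKM and Cdh1 at 50.4 to 67.1 FPKM, and the highest cochlear epithelial markers were the simple epithelial keratins Krt18 and Krt8. Of 12 tested, 3 rose in stiff gels and 0 fell, and the one with the lowest adjusted p was Sox2 (limma adjusted p = 0.0104); leaving out soft replicate 2 or stiff replicate 1 gave 0 calls, leaving out stiff replicate 3 gave 1, and leaving out soft replicate 1 gave 7. Of the hair cell markers Myo7a was at 1.49 to 1.88 FPKM and Myo6 at 20.7 to 25.0 FPKM, while Atoh1 and Pou4f3 were not analysed here; of 4 tested, 1 rose, Calb2, which of the 6 fits without a library was called only in that without soft replicate 1. The 11 measured mesenchymal markers summed to 701 to 731 FPKM in stiff libraries and 552 to 689 FPKM in soft libraries, without overlap. Most of that sum came from Lum and Dcn, so it does not stand for the list as a whole. Lum was at 411 ± 23.9 FPKM in stiff gels and 326 ± 63.2 FPKM in soft gels, and Dcn at 181 ± 6.64 FPKM in stiff gels and 125 ± 34.8 FPKM in soft gels (SD, n = 3 each). Col1a1 was at or under 0.198 FPKM in every library. Col1a2 was at 0.127 ± 0.0312 FPKM in stiff gels and 0.515 ± 0.0698 FPKM in soft gels, and Col3a1 at 24.4 to 44.5 FPKM in stiff and 43.4 to 90.4 FPKM in soft libraries. Of 9 tested mesenchymal markers 5 had a positive and 4 a negative log2 fold change, and 0 were called by limma. An unadjusted limma p under 0.05 was found for 4, against 21.7% of all tested genes. With limma-voom 1 was called, lower. The part of mesenchymal cells in the levels of the RGS genes was not tested.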

How the data were processed

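RNA-seq libraries from 3 stiff-gel and 3 soft-gel organoid samples were grouped by their titles. Per the labels' protocols, libraries were made with the TruSeq v2 kit, which does not mark strand. The submitters' processing notes name TopHat2 2.1.1, mm10 and DESeq2; counter and annotation are not given in the sources used here. Deposited by the authors was 1 table of 15016 genes. Its deposited expression columns, whose header gives no unit, were read from their values as FPKM (counts that the authors had scaled to gene length and library size). The deposited base mean is a signal (mean normalized count), and the deposited fold change (a ratio and its log2), its standard error, the Wald score, p-value and q-value are the authors' own comparison, per the file headers.

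Reads were rebuilt from FPKM and base mean, taking the authors' size factors to lie near 1; 100.0% of values were whole within 0.05 reads. They give depth and a limma-voom alternative. The main test, limma 3.58.1 in R 4.3.3 with trend, was fitted to log2(FPKM + 1) of the 11780 genes with a mean of at least 1 FPKM in either group, tested on simulated data, with a Benjamini-Hochberg adjusted p under 0.05. The planned test depended on the unit found. Counting error weighs most on Rgs10 and Rgs17, with 15 to 51 reads per library.

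Members, lists and tests were chosen with earlier results of these data known. Named were all members; up to 3 called genes per direction in each pathway list, by adjusted p; in each marker list the first 3, the highest 2 and the top call per direction; and the 5 genes nearest to Rgs5. Alternatives were a pseudocount of 0.1, no filter, median-ratio scaling, limma-voom, a replicate block, each library left out, and the authors' comparison. Coordinates and promoters are RefSeq's on GRCm38.p6. In the GENCODE annotation, exons of Rgs8, Rgs12 and Rgs16 overlap predicted genes on the other strand, whose reads could not be told apart. A gene near the RGS pairs is not reported here.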

Additional observations from a re-analysis of the deposited data

How the results depend on the processing

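The sign of the stiff against soft difference held under all 12 alternatives for Rgs2, Rgs3, Rgs5, Rgs10, Rgs12 and Rgs16. Log2 fold changes ran from -1.13 to -0.94 for Rgs5 and from -1.20 to -0.85 for Rgs16. That of Rgs19 was -0.00653 without stiff replicate 2. Leaving out the filter or adding a replicate block cannot change these fold changes. The other alternatives reuse the libraries in view when the members were chosen, so the count is a description only. Over all genes, 369 were called higher and 316 lower; without single libraries the counts ranged from 50 to 860 higher and from 15 to 767 lower. The authors' deposited comparison called 703 lower. Median-ratio scaling moved the median of all genes from 0.03 to 0.000686.

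Counts of genes called without single libraries ranged from 0 to 3 lower for other RGS genes, 0 to 2 in each direction for subunits, 0 to 1 higher for modulators, 0 to 1 higher and 0 to 2 lower for effectors, 0 to 5 higher and 0 to 2 lower for receptors, 0 to 2 lower for pericyte, 0 to 1 in each direction for smooth muscle, 0 to 2 lower for endothelial, 0 to 2 higher and 0 to 1 lower for mesenchymal, 0 to 7 higher for cochlear epithelial and 0 to 1 higher for hair cell markers. With a replicate block, subunits had 1 higher and 1 lower, receptors 0 lower, pericyte markers 1 lower, and mesenchymal markers 1 higher and 1 lower. With limma-voom, effectors had 2 higher and 1 lower and mesenchymal markers 1 lower. Without the filter, receptors had 0 lower, hair cell markers 0 higher and mesenchymal markers 1 lower. In the authors' deposited comparison, effectors had 2, receptors 2, pericyte 1, endothelial 3, mesenchymal 1 and cochlear epithelial markers 1 lower. The cause of these shifts was not tested. Same-numbered libraries deviated from their group means with correlations of 0.00873, 0.219 and -0.211 across genes. With 3 libraries per group, such correlations cannot settle whether the replicate numbers pair the libraries.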

Other observations

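The remaining genes with a pattern near that of Rgs5 were Hspb8, a small heat shock protein, Prss22, a serine protease, and Col5a3, a fibrillar collagen chain. Hspb8 had 24.8, 26.6 and 22.4 FPKM in stiff replicates 1 to 3, against 39.0, 46.7 and 52.2 FPKM in soft replicates 1 to 3. Prss22 was at 8.47 to 10.7 FPKM in stiff libraries and up to 19.9 FPKM in soft libraries. Col5a3 had 1.39, 1.24 and 1.13 FPKM in stiff replicates 1 to 3, against 2.59, 3.29 and 4.09 FPKM in soft replicates 1 to 3. In each of the 3 genes the groups did not overlap, and of the soft libraries replicate 1 was lowest.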
